A study of Mus musculus with 16 samples.

Results

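B cells of 2208L mammary tumors were described from single-cell RNA sequencing, in which each transcript molecule is counted once as a unique molecular identifier (UMI). A cell was chosen by its own counts: at least 3 UMIs of Cd79a and Cd79b together and fewer than 20 UMIs of C1qa, C1qb and C1qc together, among cells with 201 to 5999 genes and at most 10% mitochondrial UMIs. This left 78 B cells of 13,830 tumor cells, and of 73,176 cells kept in all 16 libraries of the series. 2208L is a Trp53-null mammary tumor that was transplanted into female BALB/c mice 7 to 8 weeks old, hosts with an intact immune system. The 4 tumor libraries came from mice given vehicle (methylcellulose), IACS-70654, anti-PD-1, or IACS-70654 with anti-PD-1 for 7 days, and each was 1 library pooled from 3 mice. IACS-70654 binds the bromodomain of CBP and P300, a pair of related histone acetyltransferases and transcriptional coactivators, and anti-PD-1 is an antibody against an inhibitory receptor of T cells. Viable cells of the whole tumor were sorted, without a gate for immune cells. Because so few B cells were found after IACS-70654, the 2 tumors not given it (vehicle, anti-PD-1) were set against the 2 given it (alone, combined), so the 2 tumors of a side differed in anti-PD-1. For reference, cells of the same rule were taken from 6 CD45+ bone marrow (BM) libraries, 2 each of control mice without a tumor, tumor-bearing mice given vehicle and tumor-bearing mice given IACS-70654.

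B cells carry an antigen receptor made of immunoglobulin chains that are anchored and coupled to signaling by the CD79A and CD79B proteins. A naive mature B cell displays IgM and IgD. After antigen contact and help from T cells, it can enter a germinal center, where its receptor genes mutate and can switch to IgG or IgA, and it can leave as a memory cell or as an antibody-secreting plasma cell. B cells also present antigen on major histocompatibility complex (MHC) class II, and they are a minor immune population in most mammary tumors.

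In the mm10 assembly, Cd79a (ENSMUSG00000003379) lies on chromosome 7 from 24897381 to 24902197 on the plus strand, and Cd79b (ENSMUSG00000040592) on chromosome 11 from 106311341 to 106314762 on the minus strand. The complement genes C1qa, C1qb and C1qc, which tumor macrophages express strongly and B cells do not, lie next to each other on chromosome 4 between 136880129 and 136898803. The library totals ran from 15,590,289 to 43,594,797 UMIs and no cell barcode was shared between tumor libraries. The B cells held a median of 2093 UMIs with vehicle, 2221 with IACS-70654, 1867 with anti-PD-1 and 1483 with the combination, less than the 4724 to 6332 UMIs of all kept cells. All 78 cells had the tag of their own library on top, with at least 65.3% of a cell's tag counts. Cells were assigned to libraries by these tags, so the match follows from the assignment and is no check of it or of doublets.

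Few B cells were found in the tumors given IACS-70654. There were 29 B cells among 1974 cells with vehicle and 45 among 2053 with anti-PD-1, but 2 among 4739 with IACS-70654 and 2 among 5064 with the combination. As a share of kept cells, this was 1.47% with vehicle (exact 95% binomial interval 0.986 to 2.10) and 2.19% with anti-PD-1 (1.60 to 2.92), against 0.0422% with IACS-70654 (0.0051 to 0.152) and 0.0395% with the combination (0.0048 to 0.143). The 2 groups of tumors did not overlap, and their mean shares differed 44.8-fold (1.83% against 0.0408%, log2 ratio -5.49). A 2-sided exact permutation test over the libraries gave p = 0.333, the smallest p that 2 libraries against 2 allow, and the scarcity was known when these cells were picked for description. Intervals here and below cover counting error only, and a share cannot tell fewer B cells from more cells of other types.

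T cells, taken as cells with at least 3 UMIs of Cd3d, Cd3e and Cd3g, differed far less between the same tumors. They made up 4.10% of kept cells with vehicle (81 cells), 4.48% with anti-PD-1 (92 cells), 2.64% with IACS-70654 (125 cells) and 2.78% with the combination (141 cells). The groups of tumors did not overlap for T cells either. With fewer than 20 C1q UMIs asked of T cells too, their shares were 3.34%, 4.19%, 1.60% and 2.25% in that order. Per 100 T cells there were 35.8 B cells with vehicle and 48.9 with anti-PD-1, against 1.60 with IACS-70654 and 1.42 with the combination, a 28.1-fold lower mean. The limit on C1q UMIs was set for B cells and not for T cells here. The mean was 21.9-fold lower with the limit set for both, and 3.66-fold with the limit set for neither (46.6 against 12.7 cells per 100 T cells). The plot of shares by library shows both cell types beside the BM.

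**Figure D1:**
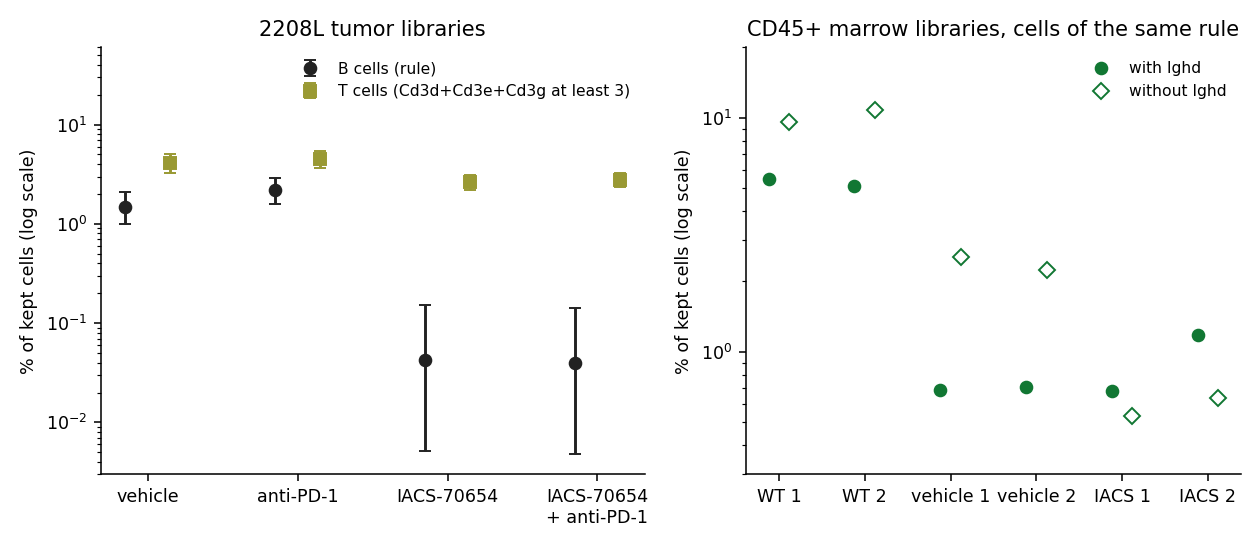
Percent of kept cells (log scale) that were B cells or T cells in the 4 tumor libraries (left, bars: exact 95% binomial intervals) and B cells of the same rule with and without Ighd in the 6 CD45+ BM libraries (right, one point per library). B cells sat at 1.47% and 2.19% in the tumors not given IACS-70654 and at 0.0422% and 0.0395% in those given it. T cells sat at 4.10% and 4.48% in the tumors not given it and at 2.64% and 2.78% in those given it.

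The size of this difference depended on the limit on C1q. Of the cells with at least 3 Cd79a and Cd79b UMIs, those over the limit were 6 of 35 with vehicle (17.1%, interval 6.56 to 33.6) and 1 of 46 with anti-PD-1 (2.17%, 0.055 to 11.5). After IACS-70654 they were 13 of 15 (86.7%, 59.5 to 98.3), and after the combination 17 of 19 (89.5%, 66.9 to 98.7). Among all kept cells, the share with 20 or more C1q UMIs was 37.3% with vehicle, 27.0% with anti-PD-1, 64.4% with IACS-70654 and 56.2% with the combination. With no limit on C1q, the share of cells with 3 Cd79a and Cd79b UMIs was 1.77% with vehicle, 2.24% with anti-PD-1, 0.317% with IACS-70654 and 0.375% with the combination, so the groups still did not overlap but differed 5.80-fold rather than 44.8-fold.

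Many cells on the far side of the limit held genes of both cell types. No cell lay near it: the highest C1q count of a B cell was 5, and the lowest of a cell outside was 35. Among the C1q-high cells with at least 3 UMIs of Cd79a and Cd79b together, 3 of 6 with vehicle, 11 of 13 with IACS-70654, 0 of 1 with anti-PD-1 and 7 of 17 with the combination had a UMI of Ms4a1, which encodes the B cell surface protein CD20, and each of those 21 cells also held Igkc, the constant part of the kappa light chain. The others included cells with Cd79b but no Cd79a, Ms4a1 or Igkc, 3 with vehicle, 2 with IACS-70654, 1 with anti-PD-1 and 8 with the combination. In C1q-high cells with no Cd79a or Cd79b UMI, Ms4a1 was found in 0.0388% to 0.191% and Igkc in 1.09% to 1.96%. The C1q-high cells of at least 3 Cd79a and Cd79b UMIs had a median of 7076.5 UMIs with vehicle, 9159 with IACS-70654 and 8238 with the combination, against 6181 to 6689 in C1q-high cells without Cd79a and Cd79b. No doublet caller was run, and whether these barcodes were a B cell caught with a macrophage or held loose RNA was not tested. The share of T cells over the same limit was 18.5% with vehicle, 6.52% with anti-PD-1, 39.2% with IACS-70654 and 19.1% with the combination.

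**Figure D2:**
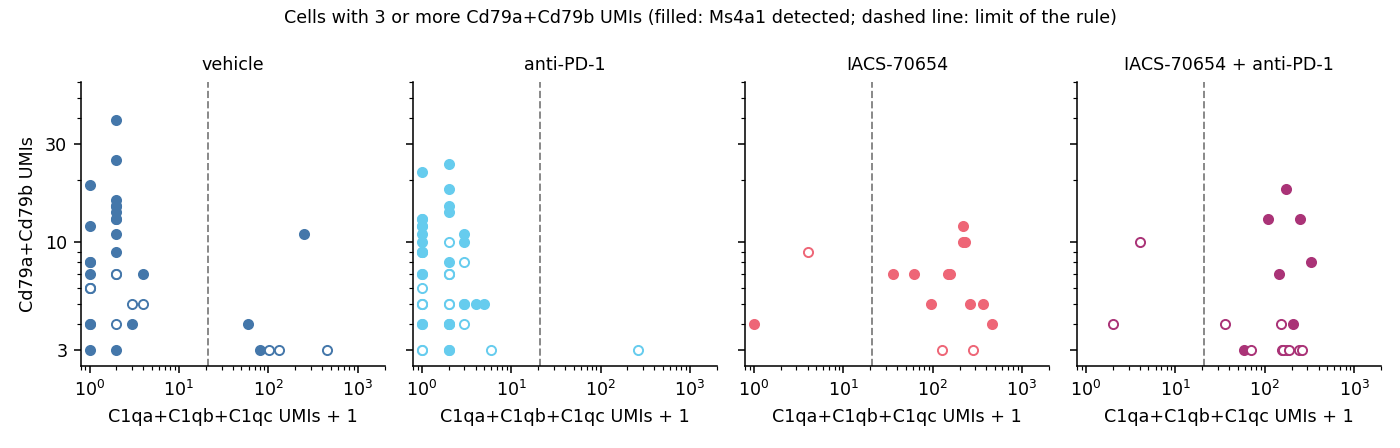
Each cell with 3 or more Cd79a and Cd79b UMIs in the 4 tumor libraries, by its C1qa, C1qb and C1qc UMIs plus 1 (log scale) and its Cd79a and Cd79b UMIs (log scale), filled where Ms4a1 was detected, with the limit of the rule dashed. With vehicle and anti-PD-1 most points lie left of the limit, and with IACS-70654, alone or combined, 13 of 15 and 17 of 19 lie right of it.

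B cells defined without Cd79a and Cd79b gave the same direction. Cells with at least 2 UMIs of Ms4a1, Cd22 and Pax5 and fewer than 20 C1q UMIs numbered 25 with vehicle, 35 with anti-PD-1, 1 with IACS-70654 and 0 with the combination, and 0 of 5064 cells allows a share of up to 0.0592% (3 counts). Without the limit on C1q they numbered 37, 40, 29 and 18, which is 1.87%, 1.95%, 0.612% and 0.355% of kept cells and a 3.95-fold lower mean after IACS-70654. At the threshold itself, 4 cells with vehicle, 2 with anti-PD-1, 2 with IACS-70654 and 1 with the combination had exactly 2 UMIs of Cd79a and Cd79b and were left out, and 2, 5, 0 and 0 had exactly 3 and were kept.

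The 78 cells held B cell genes other than those that chose them. Of the 12 genes of a B cell identity list that are not genes of the rule, all 12 had UMIs in the B cells of the vehicle and anti-PD-1 tumors, 8 in the 2 cells of the IACS-70654 tumor and 3 in the 2 cells of the combination. The summed level of these 12 genes was 5866 CPM with vehicle (CPM are UMIs of a gene scaled to the same total of UMIs in the B cells of every library), 5513 with anti-PD-1, 6979 with IACS-70654 (31 UMIs) and 3372 with the combination (10 UMIs), against 167.0 to 251.8 CPM in all other cells and 131.5 to 293.6 in T cells. Of all 78 cells, 58 held Ms4a1, 50 held Pax5, the transcription factor that fixes B cell identity, and 20 held Cd22, a brake on the receptor. Igkc was found in 77 cells, and 6 cells had more lambda than kappa light chain UMIs.

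Among the identity genes, Ms4a1 stood at 1140 CPM with vehicle (103 UMIs), 739.3 with anti-PD-1 (116 UMIs), 675.4 with IACS-70654 (3 UMIs, 95% interval 139.3 to 1974) and 0 of 2966 UMIs with the combination. Ebf1, a factor that starts the B lineage, stood at 1970, 1772, 2927 and 1686 CPM in the same order. Pax5 stood at 442.7 CPM with vehicle, 382.4 with anti-PD-1 and 450.2 with IACS-70654, and had no UMI with the combination. Bank1, a scaffold of receptor signaling, stood at 807.9, 1243, 1126 and 1011 CPM. The 0 of Ms4a1 with the combination allows up to 1011 CPM (3 counts), below the 1140 of vehicle and above the 739.3 of anti-PD-1, and it rests on 2 cells. Cd79a itself, a gene of the rule, stood at 2457, 1561, 2251 and 4046 CPM.

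The genes of CBP and P300, the targets of IACS-70654, were thinly covered. Crebbp, which encodes CBP, had 22 UMIs with vehicle (243.5 CPM), 28 with anti-PD-1 (178.5 CPM) and 0 in the 4 cells of the tumors given IACS-70654. Ep300, which encodes P300, had 4 UMIs with vehicle, 8 with anti-PD-1, 1 with IACS-70654 and 0 with the combination. A count of 0 among 4442 UMIs with IACS-70654 allows up to 675.4 CPM (3 counts), so a fall of Crebbp was not detectable at this depth.

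Markers of other cells were present in the B cells. Genes of a macrophage and monocyte list, which holds the C1q genes that the rule itself limits, summed to 3044 CPM with vehicle, 2275 with anti-PD-1, 4502 with IACS-70654 and 8766 with the combination in the B cells, against 22,909 to 59,404 in the other cells of the same tumors. Neutrophil genes summed to 1383, 803.1, 7204 and 337.2 CPM in that order, against 4192, 5412, 1618 and 1530 in the other cells. With IACS-70654 they thus stood above the rest of the tumor, on 32 UMIs, of which 19 were of Il1b, 7 of Hdc and 6 of S100a9, each found in only 1 of the 2 cells. T and NK cell genes had 17 UMIs in the vehicle B cells and 0 in the other 3 tumors, and Siglech of plasmacytoid dendritic cells had 0 in all 78 cells, while a list of dendritic cell genes summed to 409.5 CPM with vehicle and 382.4 with anti-PD-1, from 4 of its 13 genes in each. The precursor genes Vpreb1, Igll1, Rag1, Rag2 and Dntt had 0 as well, and the other genes of the precursor list summed to 409.5 and 420.6 CPM, against 365.8 and 419.6 in the other cells of these 2 tumors. Tumor epithelial genes stood at 4551 CPM with anti-PD-1, against 287.8 with vehicle, and 35 of the 38 Epcam UMIs and 31 of the 37 Krt8 UMIs there were in 1 cell of 29,716 UMIs, the largest of the 78, which met the rule with exactly 3 UMIs of Cd79a and Cd79b.

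The tumor B cells were of several kinds. Ighd, the IgD heavy chain of naive mature cells, was detected in 30 of the 78 cells, 7 of the vehicle tumor, 22 of the anti-PD-1 tumor and 1 of the combination. Of these 30 cells, 21 also held Ighm, 1 held a switched isotype (an IgG or IgA heavy chain) and 0 held Jchain, which joins antibodies into polymers. The 48 cells without Ighd held more RNA, with a median of 2349 UMIs against 1615, so detection was not equal between them. Mki67 or Top2a, genes of dividing cells, were found in 17 cells, 8 of the vehicle tumor and 9 of the anti-PD-1 tumor, with a median of 4647 UMIs. Of the 17, 12 held Jchain, 9 a switched isotype and 2 Ighd, against 19, 16 and 30 of all 78 cells.

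A single cell of the vehicle tumor was rich in antibody RNA. It held 1074 UMIs of Igkc, 355 of Ighg2b, an IgG heavy chain, and 297 of Jchain among 5819 UMIs. With and without that cell, the vehicle B cells held 18,295 and 6849 CPM of Igkc, 4051 and 130.1 CPM of Ighg2b, and 3829 and 579.6 CPM of Jchain. In the anti-PD-1 tumor, Igkc stood at 5290 CPM, Ighg2b at 6.37 CPM and Jchain at 172.1 CPM, so without the antibody-rich cell Jchain was still higher with vehicle, while Igkc (6487 CPM with anti-PD-1 once the cell with 35 Epcam UMIs was left out) was close.

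**Figure D3:**
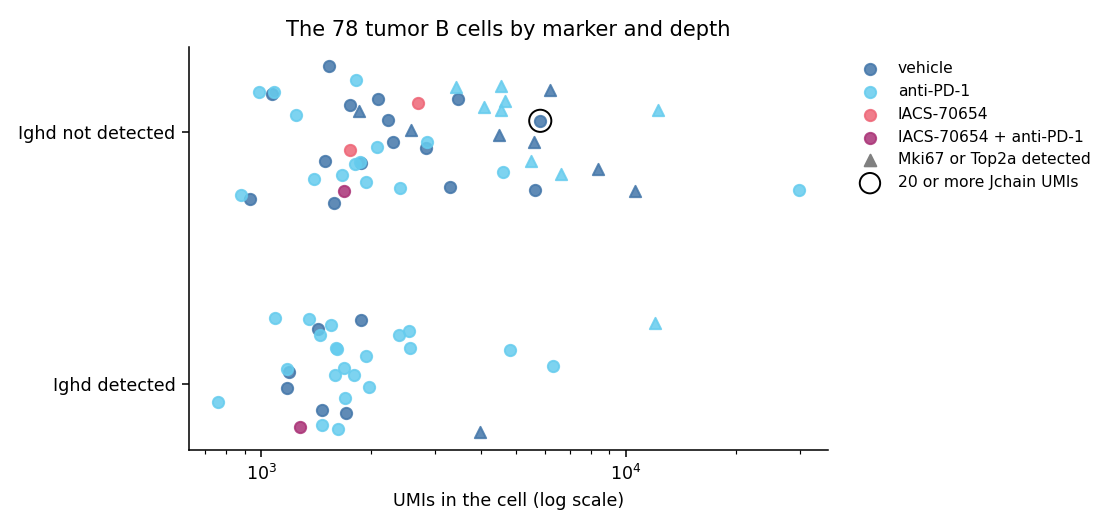
UMIs per cell (log scale) of the 78 tumor B cells, in rows by whether Ighd was detected (points spread vertically for display), with triangles where Mki67 or Top2a was detected and a ring on the antibody-rich cell. The 48 cells without Ighd had a median of 2349 UMIs and the 30 with Ighd a median of 1615, and 15 of the 17 triangles lie in the row without Ighd.

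Each cell was then thinned to 1000 UMIs in a single random draw, since the chance of detecting a gene rises with depth. This left 28 B cells with vehicle, 42 with anti-PD-1 and 2 in each tumor given IACS-70654, and 4 shallower cells were left out. Ighm, the IgM heavy chain, was found in 28.6% of the vehicle cells (8 cells, interval 13.2 to 48.7) and 66.7% of the anti-PD-1 cells (28 cells, 50.5 to 80.4). Ighd was found in 21.4% (8.30 to 41.0) and 33.3% (19.6 to 49.5), and Fcer2a or Cr2, receptors of mature B cells, in 25.0% and 26.2%. Jchain was found in 25.0% of the vehicle cells (10.7 to 44.9) and in 0 of the 42 anti-PD-1 cells in this draw. The 0 allows up to 7.14% by counting error alone, and the spread between random draws was not tested. For Ighm and Jchain, the intervals of the 2 tumors did not overlap at 1000 UMIs, but they did at 500 UMIs, where Ighm was found in 17.2% and 44.4% of cells and Jchain in 13.8% (3.89 to 31.7) and 6.67% (1.40 to 18.3), with 3 anti-PD-1 cells holding Jchain. With 1 library of each there is no replicate, and no test of anti-PD-1 on these shares was made.

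Without thinning, Ighm was found in 10 of 29 vehicle cells and 35 of 45 anti-PD-1 cells, Jchain in 11 and 8 (with intervals that overlap), and Mki67 or Top2a in 8 and 9. As a measure of loose RNA, T cells of the 4 tumors thinned in the same way (77 to 139 cells each) had no Ighd or Jchain and had Ighm in 3.60% to 7.69%.

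Most tumor B cells held RNA of an activation marker, Cd69, Cd83 or Cd86, the last of which encodes a costimulatory ligand for T cells. After thinning, at least 1 of them was found in 78.6% of the vehicle cells (22 of 28) and 73.8% of the anti-PD-1 cells (31 of 42), and in 2 of 2 and 1 of 2 cells of the tumors given IACS-70654. Among T cells of the same tumors this share was 31.2% to 39.8%. In the 6 CD45+ BM libraries it was 9.70% to 20.5% of cells of the same rule. The vehicle and anti-PD-1 tumors stood above every BM library and above their own T cells. The tumors given IACS-70654 did so too, but with 2 cells each, 1 cell with a marker already gives 50%. The BM cells included cells without Ighd, 130 of 165 and 136 of 179 with vehicle and 26 of 59 and 39 of 112 with IACS-70654.

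**Figure D4:**
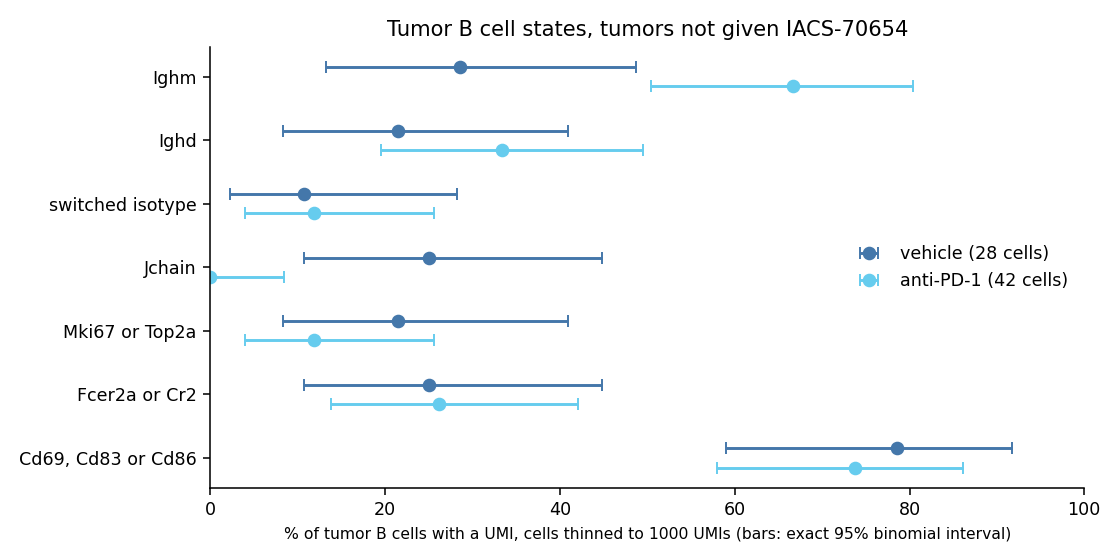
Percent of tumor B cells with a UMI of each gene or gene group in the vehicle (28 cells) and anti-PD-1 (42 cells) tumors. Cells were thinned to 1000 UMIs in a single random draw, and bars show exact 95% binomial intervals that cover counting error only. Ighm was found in 28.6% and 66.7%, Jchain in 25.0% and 0%, and Cd69, Cd83 or Cd86 in 78.6% and 73.8%.

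The 4 B cells that were found after IACS-70654 were unlike each other. In the tumor given IACS-70654 alone, one cell (2688 UMIs) held 10 Ighm UMIs, 6 of Igkc and 5 of Iglc2, a lambda light chain, with none of Ms4a1. It also held 6 S100a9, 11 Apoe, 3 Lyz2 and 3 C1qa UMIs, from the lists of other cells, and none of Pax5 or Cd22. The other (1754 UMIs) held 3 Ms4a1, 2 Pax5, 8 Igkc and 7 Cd86 UMIs and no heavy chain of IgM or IgD. In the combination, one cell (1686 UMIs) held 10 Igkc and 3 Ighg1 UMIs, of a switched isotype, and 1 of Ighm. The other (1280 UMIs) held 4 Ighm, 2 Ighd and 12 Iglc2 UMIs against 1 of Igkc, and was the only one of the 4 with Ighd. It also held 15 Apoe and 3 Lyz2 UMIs. None of the 4 cells had a UMI of Mki67, Top2a or Jchain. With 2 cells, the exact interval of an absent gene reaches 84.2%, so absence of dividing or antibody-secreting cells was not detectable at this depth. The 8 states compared between the pairs of tumors can give no exact permutation p under 0.333.

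Whether any gene differed between B cells of tumors given IACS-70654 and of those not given it depended on the fit. UMIs were summed over the B cells of each library, giving 90,354 with vehicle, 156,901 with anti-PD-1, 4442 with IACS-70654 and 2966 with the combination. Of 993 genes tested with edgeR's quasi-likelihood test, 0 (0.0%) passed at a Benjamini-Hochberg adjusted p under 0.05, 158 had an unadjusted p under 0.05, and DESeq2 called 9, all lower. With anti-PD-1 as a second term, which the 4 libraries also differ in, 14 of the 993 passed, all lower. Without the antibody-rich cell and the cell with 35 Epcam UMIs, 8 of 949 passed, also all lower. In simulated data of this design, the test recovered 29.4% of genes changed 8-fold and 0% of genes changed 2-fold. The simulation set a dispersion of 0.1 for every gene, and at that setting most differences under 8-fold would have been missed.

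Among genes whose values did not overlap between the pairs of tumors, the 3 with the lowest p in this fit were lower after IACS-70654. None of the 3 passed in it. Ptma, a small chromatin-linked protein, stood at 3774 CPM with vehicle and 3990 with anti-PD-1, against 1576 with IACS-70654 and 1686 with the combination (log2 -1.93, SE 0.30, adjusted p = 0.209 by edgeR's quasi-likelihood test). The chaperone Hsp90ab1 stood at 1837 and 1963 CPM against 225.1 and 337.2, which are 1 UMI each. Ppia, a prolyl isomerase, stood at 2734 and 2881 CPM against 900.5 and 1011. The lack of overlap was a condition for naming these genes and is no result. All 3 genes passed with DESeq2. The median of all 993 genes was itself -0.50 in this fit and 0.07 when libraries were scaled by total UMIs. Without the combination library, whose loss left 1 treated library, 46 of 2350 genes passed, and without the vehicle or the anti-PD-1 library 3 and 2 did. Cd74, the MHC class II chaperone, stood at 11,223, 8311, 4502 and 11,463 CPM for vehicle, anti-PD-1, IACS-70654 and the combination, and did overlap.

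Between tumors given anti-PD-1 and those not given it, with IACS-70654 as a second term, 10 of 993 genes (1.01%) passed, 5 in each direction. The 5 higher genes were carried by 1 cell, the one with 29,716 UMIs and 35 Epcam UMIs. It held 587 of the 606 UMIs of Wfdc18 with anti-PD-1, 548 of the 564 UMIs of Lcn2, which encodes an iron carrier-binding protein of epithelium and neutrophils, and 69 of the 71 UMIs of Tm4sf1. Pmepa1 and Ifitm2, with 51 of 60 and 38 of 41 UMIs in it, were the other 2. Among the lower genes, Igkc (log2 -1.45, SE 0.25, adjusted p = 2.2e-06 by edgeR's quasi-likelihood test) had 1074 of its 1653 vehicle UMIs in the antibody-rich cell, and Tmx4 17 of 22. Lrrc8d, Zeb1 and Osbpl9, the remaining 3, had at most 5 UMIs in any one vehicle cell, but all 9 Osbpl9 UMIs of the IACS-70654 tumor, which is on the same side, were in 1 cell. Without these 2 cells, 0 of 949 genes passed and 38 had an unadjusted p under 0.05. DESeq2 called 1 gene, Wfdc18, with all cells. In simulated data of this fit, the test made 10 false calls beside 6 true ones for genes changed 2-fold. For genes changed 8-fold it made 33 false calls beside 157 true ones, more than the threshold allows. The fit above of IACS-70654 with anti-PD-1 as a second term has the same 2 terms.

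In BM, the same rule found many more B cells, and their share also stood lower after IACS-70654, by less. They made up 15.0% and 15.9% of CD45+ cells in the control mice, 3.23% and 2.94% in tumor-bearing mice given vehicle, and 1.21% and 1.82% in those given IACS-70654. The log2 difference in share with IACS-70654 was -5.16 in the tumors and -1.05 in BM, with 0.5 added to each count. These differed by -4.11, with p = 0.333 in a 2-sided exact permutation test over 36 arrangements of the libraries within tissues, whose smallest possible p is 0.0556. Without the limit on C1q, which left out no B cell in these BM libraries, the tumor value was -2.51 and the difference -1.46 (p = 0.333, same exact test). The tumor shares are of all viable cells and pool tumors with and without anti-PD-1. The BM shares are of sorted CD45+ cells of mice not given anti-PD-1. Per the study, the BM mice were also treated for a shorter time than the mice of the tumor libraries. Length of treatment, sort and tissue cannot be told apart. The shares of B cells with Ighd overlapped between the BM groups. Counts were 35 and 43 in the vehicle libraries against 33 and 73 after IACS-70654 (0.685% and 0.706% of cells against 0.678% and 1.19%), while in the tumors there were 7 with vehicle, 22 with anti-PD-1, 0 with IACS-70654 and 1 with the combination. For these cells the difference between the tissues was -5.55 on the log2 scale (p = 0.167, same exact test), and for cells without Ighd it was -2.84 (p = 0.333). For T cells the log2 difference was -0.66 in the tumors and -1.99 in BM (p = 0.333 for the difference, same exact test).

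B cells with Ighd of the tumors were set against those of BM of tumor-bearing mice. The tumor side had 30 cells with 69,137 UMIs (the library given IACS-70654 alone had none and left the fit), and the BM side had 184 cells of 4 libraries with 1,028,738 UMIs. Cells of the rule held a median of 3314 to 5812 UMIs in these BM libraries, against 1483 to 2221 in the tumors. The minimum of 1 Ighd UMI was therefore asked at unequal depth. The fit carried IACS-70654 as a second term. Of 4020 genes, 129 (3.21%) were higher and 359 (8.93%) lower in the tumor at a Benjamini-Hochberg adjusted p under 0.05 in edgeR's quasi-likelihood test, with a median of all genes of -0.44 on the log2 scale (-0.61 with DESeq2 size factors and -0.21 with total UMIs). Tissue, length of treatment, sort, any difference in sequencing run, tissue dissociation and Cell Ranger version cannot be told apart in this comparison. No BM library was given anti-PD-1, and the fit had no term for it. Of the 30 tumor cells, 22 came from the anti-PD-1 tumor and 1 from the combination, so only the 7 vehicle cells were free of the antibody. Each tumor treatment was 1 library, so the p-values of this fit do not measure the spread between tumors of 1 treatment. With size factors of DESeq2 in place of trimmed means (TMM), 121 genes were higher and 548 lower. With only the libraries not given IACS-70654, 205 of 2290 genes (8.95%) were higher and 219 (9.56%) lower, and 307 of these 424 were called in both. The count rested on single libraries: it was 76 without the anti-PD-1 tumor, 305 without the vehicle tumor, and 190 and 213 without 1 or the other BM library given vehicle.

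MHC class II genes were higher in the tumor, and MHC class I genes did not pass. Of 10 MHC class II genes tested, 7 rose and 0 fell, with a median log2 difference of 2.11. H2-Ab1, the beta chain of an MHC class II molecule, stood at 2649 CPM with vehicle, 1854 with anti-PD-1 and 2344 with the combination, against 162.6 and 319.7 in the BM libraries given vehicle and 922.0 and 763.0 in those given IACS-70654 (log2 2.13, SE 0.44, adjusted p = 8.1e-05). H2-Eb1 stood at 2259, 2454 and 1562 CPM in the tumors against 120.4 to 906.8 in BM (log2 2.36, SE 0.45), and H2-DMb2, which helps load peptide, at 779.1, 472.5 and 781.2 against 30.11 to 170.1 (log2 2.81, SE 0.46). For all 3 genes every tumor library stood above every BM library. In the 1 cell of the combination, where 1 UMI is 781.2 CPM, these were 3, 2 and 1 UMIs, so its place follows from any detection of H2-DMb2. The calls of H2-Ab1 and H2-Eb1 were lost without the first BM library given vehicle. H2-Aa, Cd74, H2-DMa and H2-Oa also rose. None of 15 MHC class I genes passed, with H2-K1 at log2 0.60 (SE 0.43) and B2m at -0.16 (SE 0.45). Their median was 0.50 against -0.44 for all genes. The fit recovered 0% of genes changed 2-fold in data simulated at a dispersion of 0.1, so such a rise could have been missed. Some MHC class I genes passed with only the libraries not given IACS-70654, as given below. The 2 BM groups differed from each other as well, since 8 of 10 MHC class II genes rose with IACS-70654 in BM B cells with Ighd, where 508 of 4235 genes (12.0%) passed, though 0 did without the first and 27 without the second vehicle library.

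Activation genes rose with them. Of 23 activation and immediate early genes, 13 rose and 0 fell, with a median of 1.75. Cd83 stood at 1325 CPM with vehicle and 672.5 with anti-PD-1 against 18.07 to 65.49 in BM (log2 4.19, SE 0.47, adjusted p = 2.1e-16 by edgeR's quasi-likelihood test), and had 0 of 1280 UMIs in the 1 cell of the combination. Cd86 stood at 467.5, 454.4 and 781.2 CPM against 0 to 87.40 (log2 3.94, SE 0.52), 1 UMI in the combination. Fos, a transcription factor induced within minutes of a stimulus, stood at 857.0, 763.3 and 2344 against 53.97 to 241.8 (log2 3.12, SE 0.41), and Nr4a1, a nuclear receptor induced by antigen receptor signaling, at 389.6, 181.7 and 781.2 against 0 to 11.81 (log2 5.81, SE 0.94), again 1 UMI in the combination. The immediate early genes Junb, Ier2, Dusp1, Atf3, Jund and Egr3 were among the 13, and so were Cd69, Bcl2a1b and Klf6. The study's methods describe digestion with collagenase for tumors and harvest from leg bones in buffer for BM, and any part of this handling in the immediate early genes cannot be told apart from the tissue. Rel, a subunit of NF-κB, rose too (log2 2.77, SE 0.40).

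Receptors that guide B cells within lymphoid tissue were part of the same difference. Of 15 trafficking receptors, 4 rose and 1 fell, with a median of 0.51, in a fit where 3.21% of all genes rose and 8.93% fell. In all cells of the rule as many of these receptors fell as rose, as given below. Gpr183, a receptor for oxysterols that positions activated B cells, stood at 934.9 CPM with vehicle and 327.1 with anti-PD-1 against 4.15 to 89.77 in BM (log2 4.08, SE 0.54, adjusted p = 1.6e-11 by edgeR's quasi-likelihood test). Ccr6 (log2 4.61, SE 0.75), Cxcr5, which draws B cells into follicles (log2 2.96, SE 0.67), and Ccr7 (log2 2.60) rose as well, and the integrin gene Itgb2 had 0 of 69,137 UMIs in the tumor cells against 90 of 1,028,738 in BM. Cr2 and Fcer2a, receptors of mature B cells, rose with log2 differences of 3.03 (SE 0.56) and 2.05 (SE 0.57), and Bcl2, which holds off cell death, with 2.04 (SE 0.55). The calls of Cxcr5, Cr2 and Bcl2 were lost without the anti-PD-1 tumor. These genes also rose with IACS-70654 within BM (log2 2.70, 3.81 and 2.02). Cr2 stood at 6.02 and 12.45 CPM in the BM libraries given vehicle and at 166.3 and 120.5 in those given IACS-70654. Its tumor levels were 311.6 CPM with vehicle, 309.0 with anti-PD-1 and 0 in the 1 cell of the combination.

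Of 21 interferon response genes, 4 rose and 0 fell in cells with Ighd, which did not hold in all cells of the rule (2 of 18 higher and 3 lower). Ly6a, which encodes the surface protein Sca-1, had 2 UMIs with vehicle, 50 with anti-PD-1 and 0 in the combination, against 0 in all 4 BM libraries, which makes it at least 258-fold higher over the pooled cells (3 counts as the floor of the BM side, adjusted p = 4.2e-25 by edgeR's quasi-likelihood test). The 50 UMIs of the anti-PD-1 tumor were spread over 11 of its 22 cells, with 17 in 1 cell. The bound rests on that tumor, since without it 2 UMIs are left, under the floor of 3. DESeq2 did not call it (adjusted p = 0.181). Bst2 (log2 3.75, SE 0.77), Ifi44 (log2 3.87, SE 1.05) and Slfn5 were the other 3.

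In cells with Ighd, genes of B cell precursors and of division were lower in the tumor. Of the 17 tumor cells with Mki67 or Top2a, 15 had no Ighd UMI and were not in this fit. All 7 precursor genes tested fell. Vpreb1 and Igll1, the surrogate light chain of pre-B cells, had 0 UMIs in the tumor cells against 254 and 183 in BM, at least 5.69-fold and 4.10-fold lower. Il7r, the interleukin 7 receptor of early B cells, stood at 77.91, 18.17 and 0 CPM against 134.6 to 445.6 (log2 -3.86, SE 0.79). Cd24a, Ccnd3, Dntt and Rag1 were the others, and 4 of the 7 had no tumor UMI, so the fitted median of -6.97 was -2.46 with those genes at their bounds. Vpreb3, which accompanies immature receptors, fell by 4.45 on the log2 scale (SE 0.68). Of 19 cell cycle genes, 15 fell and 0 rose, with a fitted median of -2.71 and -2.39 with 2 genes at their bounds. Mki67 had no UMI with vehicle and stood at 109.0 CPM with anti-PD-1, against 171.3 to 672.6 in BM (log2 -2.82, SE 0.62). When all cells of the rule were compared rather than those with Ighd, 5.61% of 5546 genes were higher and 10.3% lower. In that fit 3 of 21 cell cycle genes fell, a share near that of all genes, while the MHC class II, activation and precursor lists gave 10 of 10 higher, 20 of 29 higher and 7 of 7 lower. Trafficking receptors gave 4 higher and 4 lower of 15 there, and the 12 identity genes outside the rule 3 and 4.

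Most B cell identity genes did not pass in cells with Ighd, in a fit that recovered 0% of genes changed 2-fold in simulated data. Of the 12 identity genes that are not genes of the rule, 0 rose and 2 fell, Ebf1 (log2 -2.23, SE 0.53) and Spib (log2 -2.93, SE 0.84). Among all genes, 3.21% rose and 8.93% fell. More of these 12 genes passed when all cells of the rule were compared, as given above. Of 22 receptor signaling genes, 2 rose (Cr2 and Lat2) and 3 fell (Vav1, Blnk and Dok3), and of 24 B cell transcription factors, 2 rose (Rel and Klf2) and 6 fell, among them Ebf1, Bach2 and Ikzf1. Ighm fell by 1.51 on the log2 scale (SE 0.50, adjusted p = 0.0275 by edgeR's quasi-likelihood test), from 1521 to 2776 CPM in BM to 311.6 with vehicle and 1436 with anti-PD-1, but stood at 3125 CPM in the 1 cell of the combination. The call of Ighm was lost without the vehicle tumor or either BM library given vehicle, that of Ebf1 without the vehicle tumor, and that of Spib without the vehicle tumor, the anti-PD-1 tumor or the first BM library given vehicle. Of 16 chromatin genes 2 fell, Ezh2 (log2 -2.77, SE 0.60) and Smarca4 (log2 -2.15, SE 0.54), and Crebbp did not pass (log2 -0.19, SE 0.47). Of 19 metabolism and stress genes 0 passed, and of 12 survival genes 1 rose, Bcl2. With only the libraries not given IACS-70654, MHC class II gave 6 of 7 higher, activation 12 of 18 higher, precursors 5 of 5 lower, cell cycle 13 of 14 lower and MHC class I 3 of 11 higher.

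Transcripts of other cells moved with the tissue. Of 8 neutrophil genes 6 were lower in the tumor B cells, and S100a8 had 0 tumor UMIs against 9869 to 23,268 CPM in the 4 BM libraries, at least 417-fold lower over the pooled cells. Of 7 macrophage genes 4 were higher (one of them, C1qa, a gene of the rule) and 1 lower, and Apoe stood at 1558, 1399 and 11,719 CPM against 12.04 to 139.4 (log2 5.03, SE 0.41). Their part in the differences above was not tested.

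**Figure D5:**
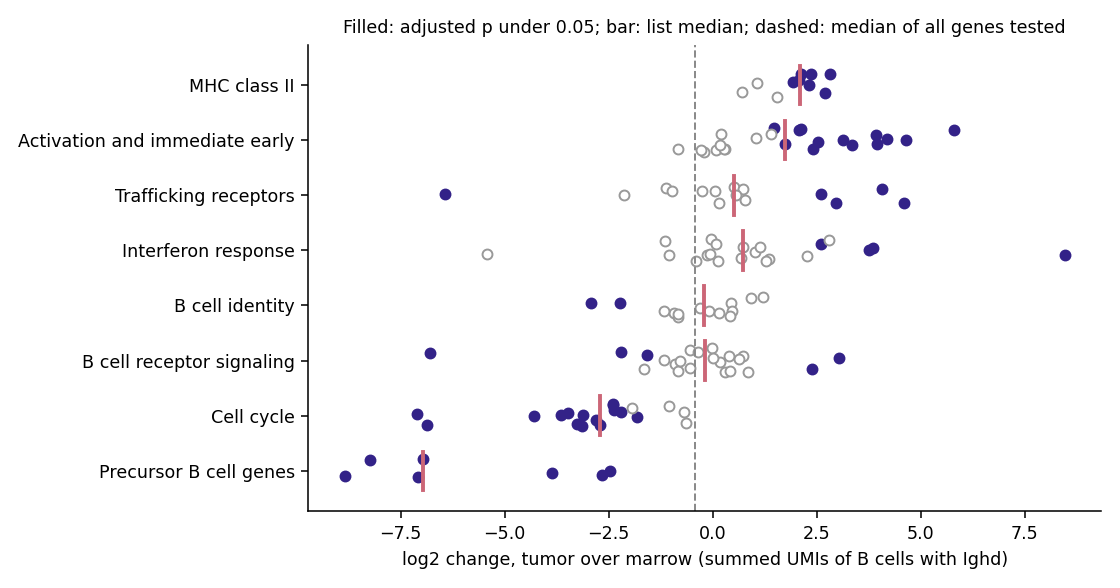
Log2 difference of tumor over BM in summed UMIs of B cells with Ighd, one point per gene of 8 lists, filled at an adjusted p under 0.05, with the list median as a bar and the median of all 4020 genes (-0.44) dashed. MHC class II (7 of 10) and activation genes (13 of 23) lie to the right, and cell cycle (15 of 19) and precursor genes (7 of 7, some with no tumor UMI) to the left.

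The test of whether IACS-70654 acted differently on B cells with Ighd in tumor and BM rested on 1 tumor cell of 1280 UMIs. It called 17 of 5415 genes (0.314%), all lower in the tumor, where the median of all genes was -5.89 on the log2 scale. Bank1 illustrates the values. It had 23 UMIs with vehicle and 105 with anti-PD-1, and 0 in that cell, while its BM levels were 259.0 and 435.9 CPM in the vehicle libraries against 1975 and 1491 CPM after IACS-70654. A count of 0 among 1280 UMIs allows up to 2344 CPM (3 counts), above all of these levels.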

How the data were processed

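Per the labels and the file headers, the authors made 10x Genomics 3′ libraries with CellPlex sample tags and counted UMIs with Cell Ranger (7.1.0 for the tumor libraries, 7.2.0 for BM) on mm10, and the deposited values are raw UMI counts per gene and cell. Each of the 4 tumor treatments is 1 library pooled from 3 mice. The study's methods lowered the confidence required to assign a tag in the tumor data. Tags remove doublets between samples only, and no doublet caller was run.

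Cells with 201 to 5999 genes and at most 10% mitochondrial UMIs were kept. The B cells, the gene lists and the tests were chosen with earlier results of these data known. Shares carry exact binomial (Clopper-Pearson) 95% intervals, which cover counting error only, and were compared over libraries by 2-sided exact permutation (smallest p 0.333 for 2 against 2). UMIs were summed per library and tested with edgeR 4.0.16 (TMM, filterByExpr, quasi-likelihood F test, Benjamini-Hochberg adjustment over all genes tested, called at an adjusted p under 0.05), with DESeq2 1.42.0 as an alternative. Where a group has 1 library, the spread came from the other libraries of the fit. Whether BM replicates came from separate mice is not given in the labels, so their p-values may measure technical spread only. CPM values scale the summed UMIs of each library to the same total. The steps were tested on simulated counts, at a dispersion of 0.1, for genes changed 2-fold and 8-fold. The tumor against BM fit recovered 0% and 63.9% of these genes, and the fit of IACS-70654 in BM 0% and 97.5%. The dispersion was the same for every gene and was not matched to the real fits. With the real counts of the fit of IACS-70654 in BM, genes changed less than 2-fold did pass. Among them were Malat1 (log2 0.61, SE 0.17) and Ighm (log2 -0.75, SE 0.18). The shares recovered thus hold for the simulated setting only.

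Genes were named by a rule: the genes of the cell selection, the identity and receptor chain genes, up to 10 called genes a direction with the largest change and no overlap between groups (up to 8 for the comparisons with BM) or else the lowest p, up to 3 genes per list, and Crebbp and Ep300. Other named genes (Tmx4, Lrrc8d, Zeb1, Osbpl9 and the remaining list members) are full accounts of a count and were chosen after their values were seen. Positions come from GENCODE vM21 (GRCm38).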

Additional observations from a re-analysis of the deposited data

Results flagged for a closer look

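The share of Cd79a- and Cd79b-positive cells with 20 or more C1q UMIs was 86.7% with IACS-70654 and 89.5% with the combination. These cells lie outside the B cell rule and above the 17.1% and 2.17% of the vehicle and anti-PD-1 tumors. With IACS-70654, 11 of the 13 cells held both Ms4a1 and Igkc, and with the combination 7 of the 17 did. Whether they were doublets was not tested.

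In the test of the difference in IACS-70654 effect between tumor and BM B cells with Ighd, 17 genes passed in edgeR's quasi-likelihood test, all lower in the tumor, but no difference in effect can be read from them. The fitted log2 differences were -13.27 for Bank1, -12.75 for Gpr183, -12.35 for Lncpint, -12.05 for Immp2l, -12.01 for Inpp4b, -11.92 for Man1a, -11.80 for Dennd4a and -11.76 for Satb1. The treated tumor side is 1 cell of 1280 UMIs with a count of 0 for each of these 8 genes, so the fitted values are no bounds.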

How the results depend on the processing

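The B cell share stayed lower with IACS-70654 under all 20 alternatives, with log2 ratios of -7.14 to -1.87, the smallest without a limit on C1q. Leaving out 1 library gave -5.75 to -5.17. Alternatives with other markers, with and without the limit on C1q for them, and without 2 single cells were added after the data were seen. So were shares of kept cells under that limit, B cells per T cell under it, and B cells per T cell without any limit. State shares, as the mean percentage with IACS-70654 minus that without, changed sign for Ighd (-2.38; 6.99 thinned to 500 UMIs; -27.4 to 22.6 leaving out 1 library), Fcer2a or Cr2 (24.4; -8.51 thinned to 500 UMIs) and Cd69, Cd83 or Cd86 (-1.19; 9.62 without thinning; -26.2 to 23.8 leaving out 1 library), and for Ighm (2.38; -16.7 to 21.4) and switched isotypes (13.7; -11.3 to 38.7) when 1 library was left out. The cause of these changes was not tested.

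Genes called with IACS-70654 against without in tumor B cells numbered 0, but 9 with DESeq2, 87 without a filter, 22 without cells holding other cells' UMIs, 8 without the 2 single cells, 14 with anti-PD-1 as a term, 21 with at least 5 Cd79a and Cd79b UMIs, 5 in cells with Ighd, and 0 to 46 leaving out 1 library. For anti-PD-1, 10 became 1 with DESeq2, 6 at a stricter threshold, 1 without cells holding other cells' UMIs and 0 without the 2 cells. In BM, 508 became 123 with DESeq2, 233 at the stricter threshold and 0 to 413 leaving out 1 library. For tumor against BM, 488 became 275 with DESeq2, 286 without a filter, 237 at the stricter threshold, 883 with all cells of the rule and 76 to 437 leaving out 1 library. For the tumor and BM difference in effect, 17 became 42 with DESeq2 size factors, 11 with DESeq2, 3 at the stricter threshold and 22 to 127 leaving out 1 library. Leaving out cells with other cells' UMIs was not run where BM entered, since at most 1 BM cell was left, leaving out a library was not run for anti-PD-1, with no residual degrees of freedom, and the difference in effect could not be fitted without the combination.

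Over all alternatives, log2 changes were followed for named genes that passed or that were named for values without overlap. They kept their direction and side of the threshold in 719 cases and no longer passed in 76. In 64 cases they newly passed, and in none did the direction change. Other named genes, and fits in which a gene was not tested, were not counted. This choice of genes favors a kept direction.

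BM libraries share replicate numbers, but deviations of same-numbered libraries correlated at -0.085 over 4235 genes and only 2 pairs exist, so the numbers were not taken as pairs. With the replicate block, 467 genes were called in BM against 508 (447 shared), and 3 of the 17 in the difference in effect (Bank1, H2-Eb1 and Lncpint).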
